A study of Mus musculus with 29 samples.

Results

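The genes grouped here as clock output transcription factors encode 8 regulators of transcription that act within or downstream of the circadian clock. They are Dbp, Tef, Hlf, Nfil3, Ciart, Bhlhe40, Bhlhe41 and Rora. They were picked by gene symbol, and all 8 were found among the 24770 gene symbols of the count table. Their levels were described in brown adipose tissue (BAT) and gastrocnemius skeletal muscle (SkM) of male wild-type C57BL/6J mice, an inbred laboratory strain. The mice were 8 weeks old at the start and were treated for 8 weeks. The control group was sedentary and fed ad libitum, the CR group was calorie-restricted stepwise to 70% of the ad libitum intake, the EX group was fed ad libitum and trained on a treadmill, and the CREX group received both interventions. BAT was sequenced from 3 control, 4 CR, 4 EX and 4 CREX mice and SkM from 4 control, 3 CR, 4 EX and 3 CREX mice, 29 libraries in all. All mice were fasted for 6 h before tissue collection, and trained mice were killed 24 h after the last bout. Each tissue was collected once, and neither the clock time of collection nor the hours at which restricted mice were fed are given in the sources used here, so a shifted phase and a changed daily mean cannot be told apart.

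The mammalian clock is a feedback loop in which CLOCK and BMAL1 (encoded by Arntl) activate genes through E-box elements, and the products PER and CRY then repress that activation. A second arm joins the loop through the REV-ERB repressors (Nr1d1 and Nr1d2) and the ROR activators, which compete for the same response elements. DBP, TEF and HLF are the PAR bZIP activators, which bind D-box elements and time metabolic and detoxification genes. NFIL3, also called E4BP4, is the repressor that competes with them for D-boxes. CIART, also called CHRONO, and the basic helix-loop-helix proteins BHLHE40 and BHLHE41, also called DEC1 and DEC2, repress CLOCK and BMAL1 activity.

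Promoter sequences were searched for the E-box CACGTG, the element through which the core loop acts. RefSeq promoters of the mouse build GRCm38.p6 matched 7 of the 8 members, all but Bhlhe40. Within 250 bases upstream of the start, the E-box CACGTG (its own reverse complement) was present in 3 of these 7 members, Tef, Ciart and Bhlhe41, and in 6.02% of all 32851 promoters in the table. The D-box, searched as TTATGTAA or TTACGTAA on both strands, was present in 0 of the 8 promoters of these members and in 0.931% of all promoters. The element AGGTCA, searched on both strands, was present in 1 member promoter, that of Nfil3, and in 14% of all promoters. The stretches printed here were shortened to leave out every GENCODE M21 exon of their gene and, for Ciart, the bases past its outermost RefSeq start, and are shown because they hold the E-boxes, which are in capitals. Ciart was read from chr3:95882258-95882478 on the minus strand, Bhlhe41 from chr6:145865559-145865670 on the minus strand and Tef, at its inner start, from chr15:81811164-81811413 on the plus strand.
Ciart: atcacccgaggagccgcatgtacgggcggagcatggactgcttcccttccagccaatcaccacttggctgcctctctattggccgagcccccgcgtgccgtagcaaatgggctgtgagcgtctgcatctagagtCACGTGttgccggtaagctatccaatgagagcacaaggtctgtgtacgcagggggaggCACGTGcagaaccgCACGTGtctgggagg
Bhlhe41: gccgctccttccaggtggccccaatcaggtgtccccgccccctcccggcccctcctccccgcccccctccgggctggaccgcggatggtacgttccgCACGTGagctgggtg
Tef: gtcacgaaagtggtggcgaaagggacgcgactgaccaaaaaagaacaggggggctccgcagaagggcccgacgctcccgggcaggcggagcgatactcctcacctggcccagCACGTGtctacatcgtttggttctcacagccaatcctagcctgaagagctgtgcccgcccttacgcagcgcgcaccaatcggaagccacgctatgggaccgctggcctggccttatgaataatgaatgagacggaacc
Counted back from the start site, the E-boxes began at -116, -58 and -44 in Ciart, at -153 in Bhlhe41 and at -138 in Tef. The outer promoter of Tef, chr15:81802423-81802672, is not printed and also held 1 E-box, at -127. These matches describe letters in a window and not bound sites. Elements outside the window or with another spelling were not searched, so a member without a match can still carry an E-box.

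The deposited values are RSEM expected counts per gene, which were rounded to whole counts. Library totals ran from 21047242 to 24919377 in BAT and from 23050918 to 23425284 in SkM. Levels are given as CPM, counts scaled to the library size with TMM factors set within a tissue. The level that 3 counts give was 0.120 to 0.143 CPM in BAT libraries and 0.128 to 0.130 CPM in SkM libraries, limits that cover counting error only. The error after a log2 fold change or log2 difference is its standard error. A difference was called a DEG (differentially expressed gene) at a Benjamini-Hochberg adjusted p under 0.05 over all genes tested and a fold change above 1.5, using edgeR's quasi-likelihood test. Ucp1, the thermogenic uncoupling protein of brown fat, was at 1373 CPM or more in every BAT library and at 0.138 CPM or less in every SkM library. BAT libraries held RNA of skeletal muscle in differing amounts, with 12 muscle markers summing to 3.38 to 766 CPM in control, 22.4 to 1701 in CR, 6.52 to 4478 in EX and 1183 to 7506 in CREX mice. In SkM these 12 markers summed to 127442 to 140030 CPM in control and 138834 to 156580 in EX mice. In restricted mice they summed to 157424 to 212258 CPM in CR and 159481 to 202739 in CREX. Of the 12, 11 were higher in CR than in control and 8 in CREX than in EX. The part of this in the levels of the members was not tested. SkM libraries held hepatocyte transcripts, with 11 markers summing to 2.90 to 8.14 CPM in control, 94.3 to 317 in CR, 1.54 to 46.7 in EX and 5.87 to 118 in CREX mice. In BAT the same markers summed to 76.0 to 111 CPM in control, 144 to 260 in CR, 30.4 to 246 in EX and 215 to 382 in CREX mice. Alb, the liver's albumin and 1 of these markers, stood at 51.4 CPM in CR replicate 3 of BAT. It was at 38.9 CPM in EX replicate 2 and 32.3 CPM in CREX replicate 4, and at 3.10 CPM or less in all other BAT libraries. In most BAT libraries the sum therefore came from listed markers other than Alb. In bulk tissue, fewer cells of a type and less RNA per cell cannot be told apart.

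In control mice, 7 of the 8 members differed between the tissues, 6 of them being higher in SkM, where 60% of the 13797 genes tested were DEGs between BAT and SkM. Per kb of the longest coding transcript, and on 1 scale for both tissues, Tef and Dbp were the most abundant members of SkM. Tef stood at 53.7 ± 2.77 CPM per kb (SD, n = 4) and Dbp at 46.4 ± 7.93 (SD, n = 4), ranges that overlapped. Bhlhe40 followed at 36.4 ± 5.32 CPM per kb (SD, n = 4), and the other 5 members of SkM had means of 1.85 to 7.85 CPM per kb. In BAT the order began with Tef at 26.7 ± 1.27 CPM per kb (SD, n = 3), Bhlhe40 at 20.7 ± 3.15 (SD, n = 3) and Dbp at 16.8 ± 1.23 (SD, n = 3), of which the last 2 overlapped. Rora, an orphan nuclear receptor, showed the largest tissue difference of the members, 5.85-fold lower in BAT (log2 fold change -2.55 ± 0.12, edgeR adjusted p = 3.7e-09). Hlf went the other way and was 2.75-fold higher in BAT (log2 fold change 1.46 ± 0.14, edgeR adjusted p = 1.2e-06). Nfil3 had an adjusted p under the threshold at a difference below the fold minimum (log2 fold change 0.35 ± 0.14, edgeR adjusted p = 0.0425). The labels do not say which libraries of the tissues came from the same mouse, and tissue comparisons treated all libraries as independent.

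In SkM, calorie restriction moved 5 of the 8 members past the threshold, with Nfil3 upregulated and Dbp, Ciart, Bhlhe40 and Bhlhe41 downregulated. Of all 13173 genes tested in this comparison 9.6% were DEGs, 4.27% upward and 5.32% downward. In trained mice, 3 of the 8 members differed between the CREX and EX groups, Nfil3 upward and Dbp and Bhlhe41 downward, while 8.87% of the 13112 genes tested were DEGs, 3.7% upward and 5.17% downward. These comparisons share no mice. Ranges without overlap were common among all genes. They were found for 27.9% of 12796 expressed genes between CR and control and for 28.7% of 12708 between CREX and EX.

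Dbp (albumin D-site binding protein, chr7:45705100-45710203 in GRCm38, plus strand) is the PAR bZIP factor known for a strong daily rhythm. The control libraries of SkM, in replicate order, stood at 91.8, 78.9, 84.8 and 59.9 CPM and the CR libraries at 31.1, 50.7 and 49.0 CPM. All 3 CR libraries lay below all 4 control libraries (log2 fold change -0.85 ± 0.19, edgeR adjusted p = 0.0151). The EX libraries stood at 71.1, 94.8, 126 and 103 CPM and the CREX libraries at 23.8, 24.8 and 34.3 CPM. The ranges did not overlap, and the CREX group was 3.56-fold lower (log2 fold change -1.83 ± 0.21, edgeR adjusted p = 0.00335). Ordered by mean, Dbp was highest in EX, then control, CR and CREX, and of these neighbours only control and CR did not overlap. Without control replicate 3 the difference between CR and control had a log2 fold change of -0.82 and an edgeR adjusted p = 0.0501.

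Nfil3 (chr13:52967209-52982878, minus strand), the D-box repressor, moved opposite to Dbp and by more. It stood at 12.0, 11.1, 8.64 and 14.3 CPM in the control libraries and at 65.9, 28.3 and 36.4 CPM in the CR libraries. Every CR library was higher than every control library, and the mean difference was 3.80-fold (log2 fold change 1.93 ± 0.27, edgeR adjusted p = 0.00208). In trained mice the EX libraries stood at 12.9, 11.6, 10.3 and 9.27 CPM and the CREX libraries at 45.0, 48.9 and 99.3 CPM. The CREX group was 5.85-fold higher with no overlap (log2 fold change 2.55 ± 0.29, edgeR adjusted p = 0.00521), and CREX replicate 3 was the highest library of all. CREX replicate 3 also had the highest sum of 14 immediate early genes, 1302 CPM against 316 and 323 CPM in the other CREX libraries, and the part of this in Nfil3 was not tested. Without CREX replicate 3 the log2 fold change was 2.09.

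Tef (thyrotroph embryonic factor, chr15:81802673-81826863, plus strand) and Hlf (hepatic leukemia factor, chr11:90336535-90390917, minus strand) were not DEGs in restricted muscle, unlike Dbp, the other PAR bZIP activator. Tef averaged 219 ± 10.6 CPM (SD, n = 4) in control and 239.6 ± 6.97 CPM (SD, n = 3) in CR muscle (log2 fold change 0.14 ± 0.10, edgeR adjusted p = 0.409). In trained mice it averaged 247 ± 19.6 CPM (SD, n = 4) without and 235 ± 42.8 CPM (SD, n = 3) with restriction (log2 fold change -0.07 ± 0.13, edgeR adjusted p = 0.736). Neither difference of Tef passed the threshold. All 3 CR libraries lay above all 4 control libraries, whereas the EX and CREX libraries overlapped. Hlf stood at 9.11, 9.17, 8.59 and 11.7 CPM in control and 8.91, 15.0 and 13.5 CPM in CR libraries, which overlapped (log2 fold change 0.38 ± 0.18, edgeR adjusted p = 0.185). Its EX libraries stood at 13.1, 15.0, 15.5 and 12.9 CPM and its CREX libraries at 10.7, 11.2 and 10.7 CPM. All CREX libraries were below all EX libraries, with an adjusted p under 0.05 at a fold change below the minimum (log2 fold change -0.38 ± 0.11, edgeR adjusted p = 0.0414). By the adjusted p alone, 13.6% of the genes tested in this comparison passed.

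Ciart (chr3:95878500-95882257, minus strand) stood at 11.1, 6.33, 8.59 and 8.19 CPM in control and at 2.33, 4.54 and 4.81 CPM in CR muscle. The groups did not overlap and CR was 2.18-fold lower (log2 fold change -1.13 ± 0.25, edgeR adjusted p = 0.0156). Among trained mice the EX libraries stood at 7.60, 8.64, 13.8 and 6.47 CPM and the CREX libraries at 1.87, 2.01 and 9.32 CPM. CREX replicates 1 and 2 were below every EX library and replicate 3 was inside the EX range, and the difference was not significant (log2 fold change -1.04 ± 0.63, edgeR adjusted p = 0.295). Without CREX replicate 3 the log2 fold change of Ciart was -2.24 with an edgeR adjusted p = 0.0157. The call in CR against control was lost in a fit over all 4 groups (edgeR adjusted p = 0.169).

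Bhlhe40 (chr6:108660629-108666925, plus strand) and Bhlhe41 (chr6:145858243-145865420, minus strand) encode closely related E-box repressors, and both were DEGs between CR and control muscle. Bhlhe41 stood at 33.1, 51.1, 48.0 and 45.8 CPM in control and at 11.2, 23.7 and 19.0 CPM in CR libraries. With no overlap, it was 2.47-fold lower in CR (log2 fold change -1.31 ± 0.23, edgeR adjusted p = 0.00479). In trained mice it stood at 42.2, 43.1, 50.4 and 69.7 CPM in EX and 16.0, 16.7 and 23.4 CPM in CREX libraries. Again the ranges were apart, and CREX was 2.74-fold lower (log2 fold change -1.46 ± 0.21, edgeR adjusted p = 0.00783). Bhlhe40 stood at 83.8, 107, 121 and 108 CPM in control and at 43.1, 68.8 and 68.9 CPM in CR libraries, again without overlap (log2 fold change -0.80 ± 0.18, edgeR adjusted p = 0.0154). In trained mice all CREX libraries, at 72.6, 59.4 and 95.6 CPM, were below all EX libraries, at 107, 109, 106 and 128 CPM. The adjusted p passed but the fold change stayed just under the minimum (log2 fold change -0.57 ± 0.16, edgeR adjusted p = 0.0454). Bhlhe40 in CR against control had an edgeR adjusted p = 0.0532 and a log2 fold change of -0.72 without control replicate 3, and in CREX against EX it passed both thresholds without CREX replicate 3 (log2 fold change -0.77, edgeR adjusted p = 0.0189).

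Rora (retinoic acid receptor-related orphan receptor alpha, chr9:68653404-69388246, plus strand) averaged 51.6 ± 6.59 CPM (SD, n = 4) in control, 67.5 ± 9.47 CPM (SD, n = 3) in CR, 52.8 ± 5.18 CPM (SD, n = 4) in EX and 81.8 ± 24.6 CPM (SD, n = 3) in CREX muscle. All CR libraries were above all control libraries, whereas the EX and CREX libraries overlapped. Neither difference was called by edgeR, at a log2 fold change of 0.40 for CR (edgeR adjusted p = 0.0824) and of 0.63 for CREX (edgeR adjusted p = 0.0569). Without CREX replicate 1, the lowest of its group, the second difference was 0.85 (edgeR adjusted p = 2.1e-04). With all libraries the second difference was called by DESeq2 (adjusted p = 0.0162) and by edgeR in 1 fit over all 4 groups (adjusted p = 0.0233). In 1 fit over all 4 groups of SkM the main effect of restriction on Rora had an adjusted p under 0.05 below the fold minimum (log2 fold change 0.52 ± 0.13, edgeR adjusted p = 0.00623).

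**Figure D1:**
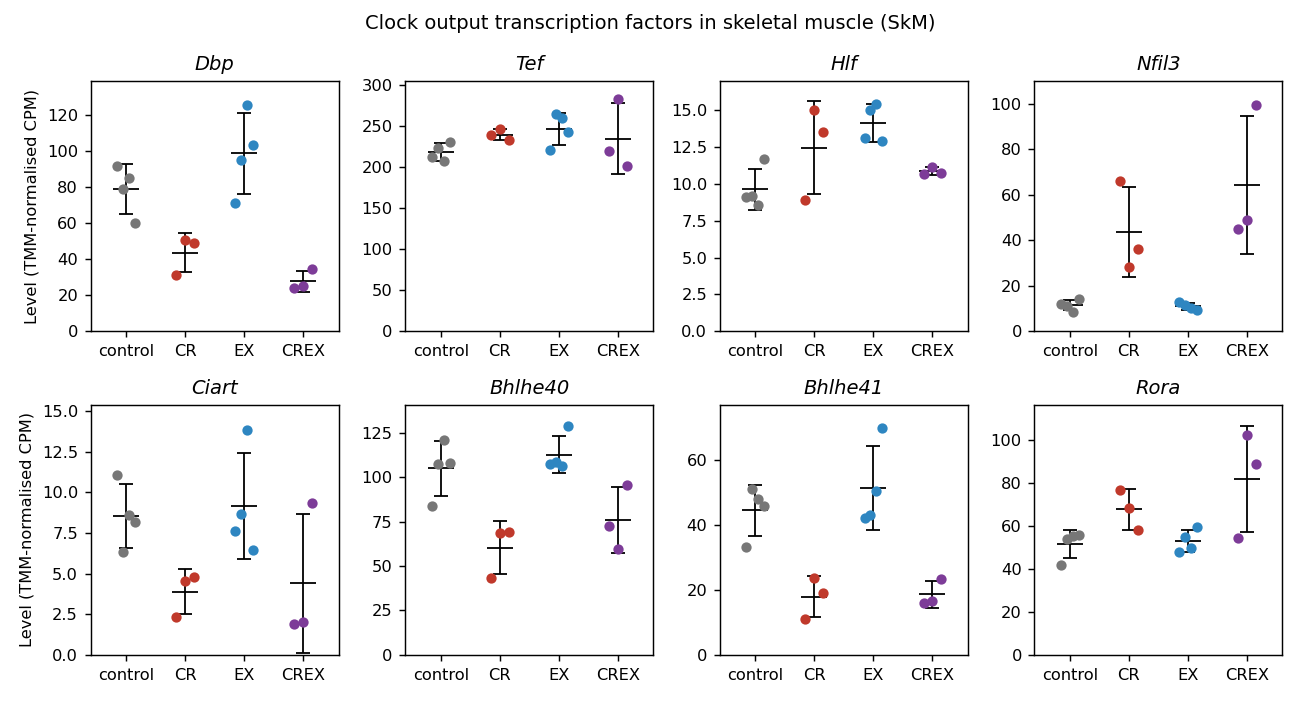
Level of each member in SkM, in TMM-normalised CPM, by group. Each point is 1 library, and the bars give the mean and SD. Nfil3 lies at 28.3 CPM or more in all restricted libraries and at 14.3 CPM or less in all others, while Bhlhe41 lies at 23.7 CPM or less in all restricted libraries and at 33.1 CPM or more in all others.

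Of the 3 members with CACGTG in the promoter window searched, Ciart and Bhlhe41 were downregulated in CR muscle and Tef was not called. Hepatocyte transcripts were raised in CR muscle but not in every restricted library. CREX replicate 2 had a hepatocyte sum of 5.87 CPM, inside the control range of 2.90 to 8.14 CPM, and CREX replicate 3 had one of 10.4 CPM, above it. In these CREX libraries Nfil3 was at 48.9 and 99.3 CPM, Dbp at 24.8 and 34.3 CPM and Bhlhe41 at 16.7 and 23.4 CPM, all outside the range of the control libraries. The part of hepatocyte RNA in the levels of the members was not tested.

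Dbp and Nfil3 bind the same elements with opposite action, and the ratio of their counts within a library needs no normalization between libraries. In SkM the ratio had a median of 7.38 in control and 9.64 in EX mice. In restricted mice the median was 1.35 in CR and 0.508 in CREX mice. Every restricted library of SkM was at 1.79 or lower, and every other library was at 4.20 or higher. In BAT the median was 1.95 in control, 2.62 in CR, 7.04 in EX and 1.92 in CREX mice. There EX ranged from 4.45 to 11.8, above every library of the other groups, which reached 4.09. These ratios are a description of levels already tested.

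**Figure D2:**
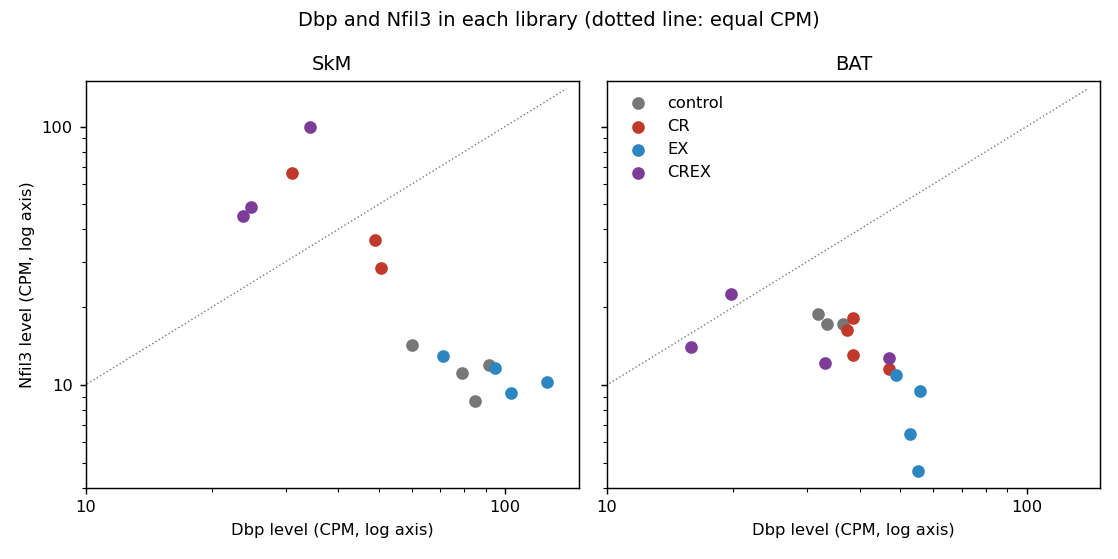
Dbp against Nfil3 in each library, in TMM-normalised CPM on log axes, for SkM and BAT. The dotted line marks equal CPM. The restricted libraries of SkM lie toward high Nfil3 and low Dbp, apart from the control and EX libraries, whereas in BAT the EX libraries hold the lowest Nfil3.

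In BAT the members called under calorie restriction were fewer and partly different genes. In CR against control 2 of the 8 members were called, Ciart upward and Bhlhe40 downward, when 10.7% of the 13323 genes tested were DEGs, 3.87% upward and 6.86% downward. Of 12839 expressed genes, 33.7% had ranges that did not overlap between CR and control. Ciart stood at 4.20, 2.41 and 4.54 CPM in control and at 6.90, 4.59, 6.47 and 6.02 CPM in CR libraries. The CR libraries were all higher, although the lowest was just above the highest control library (log2 fold change 0.69 ± 0.22, edgeR adjusted p = 0.0486). This call was lost under 8 of 15 alternatives, among them the muscle markers as a covariate, the BAT libraries of high muscle RNA left out and the fit on all 4 groups (edgeR adjusted p = 0.0624, 0.151 and 0.297). It was also lost without CR replicate 1, 3 or 4 or control replicate 1 or 2, with edgeR adjusted p = 0.122, 0.0720, 0.101, 0.0815 and 0.137. Bhlhe40 stood at 59.3, 71.8 and 81.0 CPM in control and at 48.7, 30.1, 40.3 and 49.3 CPM in CR libraries. All CR libraries were lower (log2 fold change -0.75 ± 0.18, edgeR adjusted p = 0.0253), and the call was lost under 6 of 15 alternatives. They were CR replicate 3, control replicate 2 or control replicate 3 left out (edgeR adjusted p = 0.0539, 0.0872 and 0.0812), no filter on low counts (0.0728), the replicate block (0.0704) and the fit on all 4 groups (0.113). The summed level of 14 immediate early genes ran from 113 to 828 CPM in control and from 82.6 to 95.2 CPM in CR libraries of BAT, and its part in the level of Bhlhe40, which responds to stimuli in many cell types, was not tested.

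Tef and Rora were higher in BAT of CR mice at an adjusted p under 0.05 but with fold changes just under 1.5, so that neither was a DEG. By the adjusted p alone, 20.9% of the genes tested passed. Tef stood at 135, 124 and 127 CPM in control and at 193, 159, 211 and 183 CPM in CR libraries. The groups were apart (log2 fold change 0.54 ± 0.09, edgeR adjusted p = 0.00299). Rora stood at 9.70, 11.3 and 11.0 CPM in control and at 17.0, 14.1, 15.6 and 15.6 CPM in CR libraries, also without overlap (log2 fold change 0.55 ± 0.10, edgeR adjusted p = 0.00340). Tef passed the fold minimum without CR replicate 2 (log2 fold change 0.59) and Rora without control replicate 2 (log2 fold change 0.59). For Dbp the CR libraries, at 38.6, 37.2, 47.1 and 38.5 CPM, were above the control libraries, at 36.5, 33.5 and 31.8 CPM, but the difference did not pass (log2 fold change 0.25 ± 0.09, edgeR adjusted p = 0.0749). Nfil3, Bhlhe41 and Hlf were not significant either. The log2 fold change was -0.27 for Nfil3 (edgeR adjusted p = 0.214), -0.35 for Bhlhe41 (edgeR adjusted p = 0.111) and 0.07 for Hlf (edgeR adjusted p = 0.778).

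In trained mice 2 of the 8 members were called, Bhlhe41 downward and Rora upward, in CREX against EX BAT, when 4.48% of the 13251 genes tested were DEGs, 1.86% upward and 2.63% downward. Of 13043 expressed genes, 17.8% had ranges that did not overlap between CREX and EX. Bhlhe41 stood at 15.9, 14.7, 17.1 and 13.3 CPM in EX and at 6.43, 8.16, 4.87 and 5.21 CPM in CREX libraries. The ranges were well apart, and CREX was 2.49-fold lower (log2 fold change -1.31 ± 0.16, edgeR adjusted p = 0.00223). Rora stood at 11.4, 11.5, 10.9 and 8.89 CPM in EX and at 16.0, 16.9, 19.6 and 13.6 CPM in CREX libraries, without overlap (log2 fold change 0.63 ± 0.12, edgeR adjusted p = 0.0168). With the muscle markers as a covariate its fold change fell below the minimum (log2 fold change 0.55, edgeR adjusted p = 0.0201), and the same happened without CREX replicate 3 (0.54) or EX replicate 4 (0.55). Rora and Bhlhe41 are both higher in SkM than in BAT, and the muscle marker sum was 1183 to 7506 CPM in CREX and 6.52 to 4478 CPM in EX mice. Bhlhe41, unlike Rora, was lower in CREX. Its call held under all 15 alternatives, the muscle covariate among them and also the setting without a fold minimum, which could not lose it.

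Dbp and Nfil3 had the same direction in BAT of trained mice as in SkM, and edgeR on the EX and CREX libraries did not call them. Dbp stood at 55.2, 55.7, 48.8 and 52.7 CPM in EX and at 33.1, 47.0, 19.7 and 15.8 CPM in CREX libraries. The CREX libraries were spread widely below the EX libraries, the highest being replicate 2 (log2 fold change -0.89 ± 0.33, edgeR adjusted p = 0.149). Nfil3 stood at 4.66, 9.47, 11.0 and 6.43 CPM in EX and at 12.2, 12.8, 22.5 and 14.1 CPM in CREX libraries, the latter all higher (log2 fold change 0.96 ± 0.31, edgeR adjusted p = 0.104). Both were called by edgeR in 1 fit over all 4 groups (adjusted p = 0.0395 for Dbp and 0.0315 for Nfil3). Nfil3 was also called by DESeq2 (adjusted p = 0.00810) and with the replicate block (edgeR adjusted p = 0.0196). Without CREX replicate 2 the log2 fold change of Dbp was -1.21 (edgeR adjusted p = 0.0379) and that of Ciart was -1.24 (edgeR adjusted p = 0.0311). Ciart, Bhlhe40, Tef and Hlf were not called with all libraries, with log2 fold changes of -0.55, -0.41, 0.20 and -0.22 and edgeR adjusted p of 0.302 or more.

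**Figure D3:**
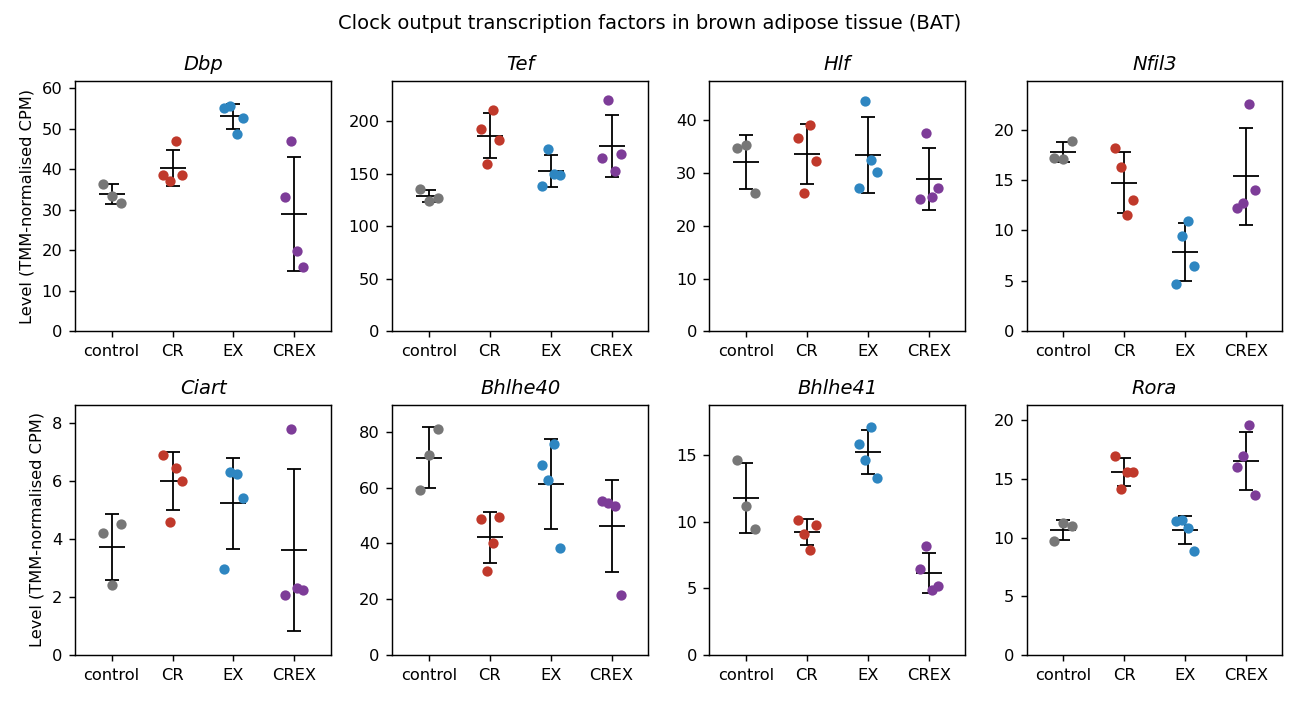
Level of each member in BAT, in TMM-normalised CPM, by group. Each point is 1 library, and the bars give the mean and SD. Rora lies at 13.6 CPM or more in all restricted libraries and at 11.5 CPM or less in all others, and Nfil3 is lowest in the EX group.

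Over all 4 groups of BAT, the main effect of restriction was called for 2 members, Bhlhe41 (log2 fold change -0.87 ± 0.17, edgeR adjusted p = 0.00160) and Rora (log2 fold change 0.59 ± 0.08, edgeR adjusted p = 5.0e-05), where 11.6% of the 13922 genes tested were DEGs. Rora was close to the fold minimum, and leaving out CR replicate 1, control replicate 1, EX replicate 4 or CREX replicate 2 or 3 put it below, at log2 fold changes of 0.57, 0.57, 0.54, 0.58 and 0.54. The muscle markers as a covariate also put it below (0.56). Bhlhe40 missed the threshold (log2 fold change -0.57 ± 0.21, edgeR adjusted p = 0.0513) and was called with that covariate (log2 fold change -0.62, edgeR adjusted p = 0.0437) and without CREX replicate 1, CREX replicate 2 or EX replicate 4 (edgeR adjusted p = 0.0467, 0.0452 and 0.0179). In SkM the main effect was called for 5 members, where 13.9% of the 13610 genes tested were DEGs. They were Nfil3 (log2 fold change 2.25), Bhlhe41 (-1.38), Dbp (-1.33), Ciart (-1.08) and Bhlhe40 (-0.68), with edgeR adjusted p of 0.0281 or less. Ciart was not called there without CR replicate 1, CREX replicate 2 or EX replicate 3, with edgeR adjusted p = 0.0616, 0.0529 and 0.0532, or without the filter on low counts (0.0613).

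The response to calorie restriction differed between the tissues for 3 of the 8 members, tested as the CR effect in SkM minus that in BAT in untrained mice, when 6.29% of the 14369 genes tested were DEGs. Nfil3 had an effect of 1.93 in SkM and of -0.27 in BAT on the log2 scale (log2 difference 2.19 ± 0.36, edgeR adjusted p = 0.00361). Ciart had an effect of -1.13 in SkM and of 0.69 in BAT (log2 difference -1.83 ± 0.37, edgeR adjusted p = 0.00818). Dbp had an effect of -0.85 in SkM and of 0.25 in BAT (log2 difference -1.11 ± 0.23, edgeR adjusted p = 0.00943). These 3 calls held under all 19 alternatives, of which the one without a fold minimum could not lose a call. The muscle covariate and the exclusion of BAT libraries of high muscle RNA were not run for this difference. Bhlhe41 was not called by edgeR with all libraries (log2 difference -0.96 ± 0.31, edgeR adjusted p = 0.0761), and was called by DESeq2 (log2 difference -0.99, adjusted p = 0.0206) and by edgeR without BAT control replicate 1, SkM CR replicate 2 or SkM control replicate 1 (edgeR adjusted p = 0.0454, 0.0240 and 0.0417). Tef had a difference of -0.41 (edgeR adjusted p = 0.102), and Bhlhe40, Rora and Hlf had differences of -0.06, -0.16 and 0.30 with edgeR adjusted p of 0.526 or more.

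**Figure D4:**
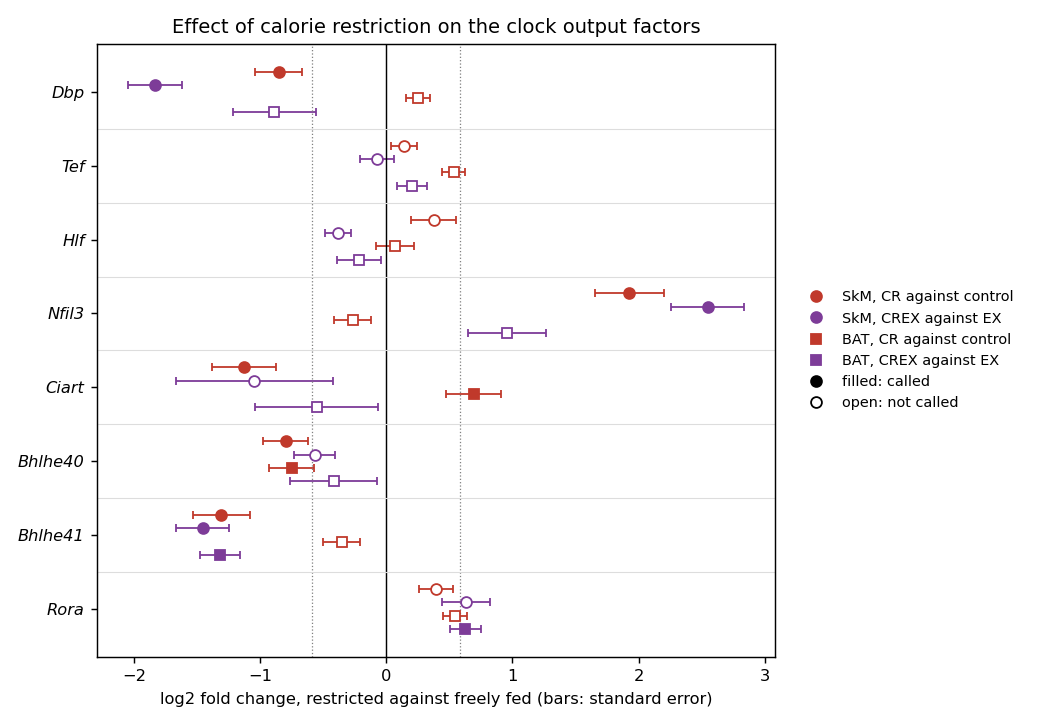
Log2 fold change of each member between restricted and freely fed mice, with its standard error, in 4 comparisons. Filled symbols passed both thresholds, and the dotted lines mark a fold change of 1.5. Nfil3 in SkM lies farthest to the right, at 1.93 and 2.55, and Dbp in SkM of trained mice farthest to the left, at -1.83.

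Exercise training changed no member past the threshold in either tissue by edgeR. The control libraries are shared with the comparisons of CR against control. Ranges of EX and control did not overlap for 8.1% of 13069 expressed genes in BAT and 4.22% of 12730 in SkM. In BAT of EX against control mice 0 of the 13407 genes tested were DEGs in edgeR (0%), with 972 genes at an unadjusted p under 0.05 and 39 called by DESeq2. Dbp had the smallest p of all these genes. It stood at 36.5, 33.5 and 31.8 CPM in control and at 55.2, 55.7, 48.8 and 52.7 CPM in EX libraries, without overlap (log2 fold change 0.66 ± 0.07, edgeR adjusted p = 0.109). Nfil3 stood at 17.2, 17.1 and 18.9 CPM in control and at 4.66, 9.47, 11.0 and 6.43 CPM in EX libraries, all of them lower (log2 fold change -1.16 ± 0.27, edgeR adjusted p = 0.417). DESeq2 called both, with adjusted p = 2.7e-09 for Dbp and 0.00308 for Nfil3, and edgeR without the filter on low counts called Dbp (adjusted p = 0.00876). Dbp is higher in SkM than in BAT, and the muscle marker sum was 3.38 to 766 CPM in control and 6.52 to 4478 CPM in EX libraries of BAT. With the muscle markers as a covariate edgeR did not call Dbp, and over all 14 alternatives its log2 fold change was 0.61 to 0.71. EX replicate 4, with the lowest muscle sum of its group at 6.52 CPM, had Dbp at 52.7 CPM. The share of Dbp counts that came from muscle RNA was not tested. In SkM of EX against control mice 0.0775% of the 12907 genes tested were DEGs and no member was among them. Hlf came nearest, with all EX libraries above all control libraries (log2 fold change 0.55 ± 0.12, edgeR adjusted p = 0.152), and it was the 1 member called without control replicate 4. Between CREX and CR mice no member was called in BAT, where 0.00763% of the 13112 genes tested were DEGs, or in SkM, where 0% of the 13068 genes tested were in edgeR, 477 had an unadjusted p under 0.05 and DESeq2 called 17. In BAT 1 member, Ciart, was called without CREX replicate 2. The main effect of EX was called for no member in BAT, where edgeR called 0% of all genes, DESeq2 called 89 and 1506 had an unadjusted p under 0.05, or in SkM, where 0.0294% were called.

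The interaction, which asks whether restriction acted differently in trained and untrained mice, was called for no gene in either tissue (0% of 13922 genes in BAT and of 13610 in SkM, with 800 and 669 at an unadjusted p under 0.05, by edgeR), and DESeq2 called 4 genes in each, none of them a member. Among the members, Bhlhe41 in BAT had the smallest unadjusted p (log2 difference -0.96 ± 0.24, edgeR adjusted p = 0.725). Dbp had log2 differences of -1.14 in BAT and -0.96 in SkM (edgeR adjusted p = 0.824 and 0.941).

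The core loop was followed with 16 listed genes. In SkM of CR against control mice 13 of them were tested, with 1 upregulated and 1 downregulated and a median log2 fold change of 0.056, against 0.0050 over all genes tested. Of all genes tested there, 9.6% were DEGs. Nr1d1, the REV-ERB alpha repressor, was lower (log2 fold change -2.03 ± 0.23, edgeR adjusted p = 5.6e-04). Per2, a repressor of the loop, was higher (log2 fold change 1.82 ± 0.16, edgeR adjusted p = 1.7e-04). In SkM of CREX against EX mice 1 of 13 was called, Nr1d1, which fell (log2 fold change -2.10 ± 0.19, edgeR adjusted p = 0.00112). Nr1d1 ranged from 148 to 261 CPM in control and 104 to 183 CPM in EX libraries of SkM, and from 42.3 to 66.0 CPM in CR and 28.0 to 35.3 CPM in CREX libraries.

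In BAT of CR against control mice 10.7% of all genes tested were DEGs. Of the 15 loop genes tested 4 rose and 1 fell, with a median log2 fold change of 0.18, against 0.0045 over all genes tested. Those with the largest changes were Cry1, a repressor of CLOCK and BMAL1 (log2 fold change 2.09 ± 0.18, edgeR adjusted p = 1.5e-04), Nr1d1 (log2 fold change -1.90 ± 0.11, edgeR adjusted p = 5.3e-06) and Per2 (log2 fold change 1.65 ± 0.36, edgeR adjusted p = 0.0285). In CREX against EX mice 1 of 14 rose and 1 fell, namely Cry1 (log2 fold change 1.54 ± 0.16, edgeR adjusted p = 0.00108) and Nr1d1 (log2 fold change -2.30 ± 0.35, edgeR adjusted p = 0.0131). Of all genes tested there, 4.48% were DEGs. Nr1d1 was downregulated in all 4 comparisons of diet, with log2 fold changes of -1.90 to -2.30, and Dbp and Nfil3 were called in both comparisons of SkM and, in the edgeR fits on 2 groups, in neither of BAT. Cry1 was the 1 loop gene of 16 whose CR effect differed between the tissues, being smaller in SkM (log2 difference -1.53 ± 0.23, edgeR adjusted p = 0.00109). Of all 14369 genes tested for this difference 6.29% were DEGs, so the count of loop genes was near the share of all genes. With exercise alone, Arntl fell in SkM (log2 fold change -1.20 ± 0.17, edgeR adjusted p = 0.0279), from 12.1 to 18.2 CPM in control to 4.97 to 8.66 CPM in EX libraries, the 1 loop gene of 13 called there. Of all genes tested between EX and control muscle, 0.0775% were DEGs.

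Genes known to be driven by PAR bZIP factors in liver were followed with 14 listed genes, most of them enzymes of xenobiotic and fatty acid metabolism. In BAT of CR against control mice 2 of 7 tested rose and 0 fell, with a median log2 fold change of 0.49, when 10.7% of all genes tested were DEGs. Cyp2b10, a drug-metabolizing cytochrome P450, stood at 6.77, 5.84 and 8.66 CPM in control and 93.5, 84.2, 45.2 and 56.3 CPM in CR libraries. The groups were far apart (log2 fold change 3.30 ± 0.34, edgeR adjusted p = 0.00220). Cyp4a10, a fatty acid hydroxylase, ranged from 0.371 to 0.523 CPM in control and 1.78 to 6.43 CPM in CR libraries (log2 fold change 2.85 ± 0.57, edgeR adjusted p = 0.0118). In CREX against EX mice 1 of 6 rose, Cyp2b10 (log2 fold change 4.75 ± 0.74, edgeR adjusted p = 0.0171), with 0.739, 1.42, 1.01 and 5.65 CPM in EX and 51.1, 28.7, 77.6 and 81.3 CPM in CREX libraries. Of all genes tested between CREX and EX in BAT, 4.48% were DEGs. In the same comparisons the PAR bZIP activators had log2 fold changes between -0.89 and 0.54. In replicate order, Alb stood at 0.0868, 0.0946, 51.4 and 0.129 CPM in the CR libraries of BAT. In its CREX libraries Alb stood at 0.239, 0.0887, 0.124 and 32.3 CPM. Cyp2b10 was at 0.0452 CPM or less in every SkM library. The part of hepatocyte transcripts in the target gene levels of BAT was not tested.

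Of all genes tested between CR and control muscle, 9.6% were DEGs. In SkM of CR against control mice 4 of the 8 listed target genes tested rose, Cyp2a5, Cyp3a11, Cyp4a10 and Cyp4a14, and 0 fell. All 4 were near the detection limit in control libraries, at no more than 0.233 CPM, and ranged in CR libraries from 1.45 to 14.4 CPM, 1.32 to 18.7 CPM, 0.746 to 6.13 CPM and 0.658 to 7.67 CPM. They passed the count filter only through the CR libraries, so only a rise could be seen. These are abundant liver transcripts, and all 9 hepatocyte markers tested rose in the same comparison, with Alb, the liver's albumin, at 0.184, 3.21, 0.859 and 0.208 CPM in control and 27.9, 153 and 144 CPM in CR libraries. Their part in the rise of the target genes was not tested. Of the 12 hepatocyte markers listed, 9 were tested here and 2 in CREX against EX, so the count of rising markers also depended on the filter. In CREX against EX mice 0 of 4 target genes tested were called by edgeR, with 1 at an unadjusted p under 0.05, when 8.87% of all genes tested were DEGs. Cyp2a5, Cyp3a11, Cyp4a10 and Cyp4a14 did not pass the filter there.

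Likeness to each member was described by the Pearson r of log2 CPM over the libraries of a tissue, which share the treatment groups and any tissue admixture. In SkM (14 libraries, 13610 genes) the genes most like Nfil3 were Wbp1l (r = 0.972) and Foxo3 (0.970). Those most like Dbp were Apbb2 (0.939), Gm35546 (0.927) and P2rx6 (0.924). Casp12 was among the 3 most like both Bhlhe40 (0.954) and Bhlhe41 (0.960), and Per3, a loop repressor, was the gene most like Hlf (0.821). The leading genes of the other SkM members were Armc5 for Tef (0.847), Wbp5 for Ciart (0.931), Azin1 for Bhlhe40 (0.960) and Mybpc2, a gene of fast muscle fibres, for Rora (0.967). In BAT (15 libraries, 13922 genes) Nr1d2, which encodes REV-ERB beta, was the gene most like Dbp (0.863) and among the 3 most like Ciart (0.797), and Bhlhe41 was itself among the 3 most like Dbp (0.781). Col13a1 (0.933) and then Nr1d1 (0.891) were most like Bhlhe41. The leading genes of the other BAT members were Usp2 for Tef (0.904), Fam185a for Hlf (0.872), Zcchc14 for Nfil3 (0.881), Apoo-ps for Ciart (0.892), Tgif1 for Bhlhe40 (0.910) and Lonrf3 for Rora (0.938).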

How the data were processed

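RNA-seq of BAT (15 libraries) and SkM (14 libraries) was used, grouped as the sample records label it. Per the paper's methods, the authors trimmed the reads, mapped them to mm10 (STAR) and estimated gene counts with RSEM, and they deposited the expected counts, not normalized, with 1 row per gene symbol. The submitters' processing notes list STAR 2.7.10a. The annotation used for counting is not given in the sources used here. Of all values 6.11% were not whole, and expected counts were rounded. Of the symbols, 27 had been turned into dates and 2 were duplicated, none of them a gene named here.

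Each comparison was fitted on its own groups with edgeR 4.0.16 (R 4.3.3, robust quasi-likelihood test, TMM, filterByExpr), with main effects, interaction and tissue differences each in 1 fit over all groups concerned. A standard error is the log2 fold change divided by the square root of F. The steps were tested on data simulated for CR against control only. There edgeR found 141 of 195 genes given a 2-fold change in BAT and 143 of 196 in SkM, with 10 and 12 false calls. DESeq2 found 153 and 147 of these genes, with more false calls, 19 in BAT and 18 in SkM. Alternatives were DESeq2 1.42.0, RLE size factors, no filter, no fold minimum, the replicate number as a block, 1 fit over all groups, the muscle marker score as a covariate in BAT and each library left out. Leaving out BAT libraries of high muscle RNA (score above 5) was chosen after seeing the data. The setting without a fold minimum used the main fit, so it could add calls but not lose them. Positions and promoters are from RefSeq (GRCm38), and transcript lengths are from GENCODE M21. Members and gene lists were chosen with earlier results of these data known. An item of the lists is not reported here and was left out of their counts. The text names every member, up to 3 called genes of each list with the largest change in a comparison, the 3 genes most like a member (of which the first is always given) and the defining markers whose level moves with a member.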

Additional observations from a re-analysis of the deposited data

Results flagged for a closer look

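Single libraries stood apart in 6 of 40 cases, each being 1 member in 1 of the 5 groups of 4 libraries, by the gap between the extreme library and its nearest neighbour relative to the range of the group, a criterion that chance alone meets in about 1 in 20 cases. In BAT, CR replicate 3 was the highest for Dbp at 47.1 CPM, CREX replicate 2 was the highest for Hlf at 37.6 CPM and for Ciart at 7.80 CPM, and CREX replicate 4 was the lowest for Bhlhe40 at 21.6 CPM. In SkM, EX replicate 4 was the highest for Bhlhe40 at 128 CPM and control replicate 1 was the lowest for Rora at 41.8 CPM. CREX replicate 2 of BAT was also the highest CREX library for Dbp, at 47.0 CPM.

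The effect of calorie restriction in untrained mice differed between the tissues for 3 members, by a test of the difference itself in 1 fit over both tissues. As the effect in SkM minus that in BAT, the log2 difference was 2.19 for Nfil3, -1.83 for Ciart and -1.11 for Dbp (edgeR adjusted p = 0.00361, 0.00818 and 0.00943).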

How the results depend on the processing

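In BAT the 2 members called between CR and control became 1 without the filter on low counts, 4 without the fold minimum, 1 with the replicate block, 0 in 1 fit over all groups, 1 with the muscle covariate and 1 without the libraries of high muscle RNA, and 0 to 3 with each library left out. The 2 called between CREX and EX became 4 in 1 fit over all groups and 1 with the covariate, and 1 to 4 with each library left out. The 0 called between EX and control became 2 with DESeq2 and 1 without the filter. The 2 called for the main effect of CR became 1 to 3, and the 0 called between CREX and CR became 0 to 1, with each library left out. In SkM the 5 called between CR and control became 3 to 5 with each library left out, the 3 called between CREX and EX became 5 without the fold minimum and 3 to 5 with each library left out, and the 0 called between EX and control became 0 to 1. With the muscle covariate the main effect of CR in BAT also gave 2 calls, with Bhlhe40 in place of Rora. The cause of these changes was not tested. Dbp, Nfil3 and Ciart kept their tissue difference under all 19 alternatives, and Nfil3 and Bhlhe41 were called in both comparisons of diet in SkM under all 13. Both counts include the setting without a fold minimum, which could not lose a call. The signs of some differences that were not called also turned, with each library left out, for Hlf between CR and control in BAT (-0.055 to 0.16), for Tef between CREX and EX in SkM (-0.22 to 0.021) and for Bhlhe40 in the tissue difference (-0.22 to 0.12, and 0.016 with the replicate block).

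Same-numbered libraries are different mice, and their deviations correlated with a mean r of -0.302 to 0.146 over the comparisons, so the numbers do not pair the samples. With the replicate block Ciart between CR and control in SkM had an edgeR adjusted p = 0.0832, Bhlhe40 between CR and control in BAT had 0.0704, and Nfil3 between CREX and EX in BAT had 0.0196. The fewest reads stood behind Ciart, with 45 counts in SkM CREX replicate 1 and 52 to 176 counts a library in BAT.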
